A study of Mus musculus with 6 samples.

Results

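The 10 genes described here handle iron and heme in macrophages: *Lcn2*, *Hmox1*, *Ftl1*, *Fth1*, *Tfrc*, *Slc40a1*, *Slc11a1*, *Slc11a2*, *Slc48a1* and *Blvrb*. They were taken by symbol from the 24972 rows of the table, all 10 were found, and all 10 passed the filter on low values. RNA was sequenced from mouse macrophages that had been derived from bone marrow with 20% L929 cell supernatant in the medium, which supplies macrophage growth factor. The 3 wild-type (WT) libraries came from mice with intact *Lcn10* and the 3 Lcn10-KO libraries from mice without it. All cultures were untreated. *Lcn10* encodes a small secreted lipocalin. The labels name no age, sex, strain or design of the knockout allele. They also do not say whether the 3 libraries of a genotype came from different animals, so the p-values rest on a spread between libraries that may be technical. The values are normalized counts, that is, read counts scaled by the authors between libraries. *Lcn10* itself was listed at 0 in all 6 libraries and cannot check the genotype labels.

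Macrophages recycle the iron of the body. They take up iron bound to transferrin through the transferrin receptor, or as heme inside engulfed red cells, break heme down with heme oxygenase, keep iron in the ferritin shell, and release it through ferroportin, the one known cellular exporter of iron. Much of this is set after transcription. Iron regulatory proteins bind a hairpin in the messenger RNA, the iron-responsive element: in a 5′ untranslated region (UTR) the bound protein blocks translation, whereas in the 3′ UTR of the transferrin receptor it protects the message from decay. *Lcn2*, the lipocalin that carries iron in siderophores, is a classic gene of inflamed macrophages and of neutrophil granules.

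Because a ferritin message can stay level while its translation changes, the hairpins are shown before the counts. The search took a C, 5 bases, the loop CAGTGN and 5 bases that pair with those before the loop (A with T, G with C or G with T), on the sense strand of the protein-coding transcripts that GENCODE annotates on GRCm38 (mm10). Of 21901 protein-coding genes, 0.142% held such a core in a 5′ UTR and 0.589% in a 3′ UTR. Among the 10 genes it was found in 4, in the 5′ UTR of *Fth1*, *Ftl1* and *Slc40a1* and at 4 places in the 3′ UTR of *Tfrc*. The sites of the 3 genes below are printed 5′ to 3′ as DNA of the transcribed strand, with the loop in capitals.
Fth1 5′ UTR, chr19:9982731-9982760, plus strand: tttcctgcttcaaCAGTGCttgaacggaac
Ftl1 5′ UTR, chr7:45459779-45459808, minus strand: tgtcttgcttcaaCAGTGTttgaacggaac
Tfrc 3′ UTR, chr16:32631218-32631247, plus strand: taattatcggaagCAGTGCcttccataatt
Tfrc 3′ UTR, chr16:32631597-32631626, plus strand: acattatcgggagCAGTGTcttccataatg
Tfrc 3′ UTR, chr16:32631662-32631691, plus strand: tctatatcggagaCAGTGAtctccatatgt
Tfrc 3′ UTR, chr16:32631709-32631738, plus strand: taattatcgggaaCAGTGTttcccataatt
The stem bases on either side of the loop were the same in *Fth1* and *Ftl1*, and the 4 *Tfrc* sites all held the run tatcgg before the loop. The site of *Slc40a1* lies at chr1:45925465-45925494 on the minus strand. In the other 6 genes this pattern was not matched, which says only that these letters and pairs are not in those transcripts. An element with an unpaired or extra base among the 5 pairs would be missed. None of these 6 genes, *Slc11a2* included, can therefore be said to lack one. A match is a description of sequence and no measurement of binding. RefSeq promoters on GRCm38.p6, from 250 bases before to 50 after the start, were at hand for 6 of the 10 genes. *Slc40a1*, *Slc11a2*, *Hmox1* and *Slc48a1* had none and were not searched. None of the 9 promoters of the other genes held TGACNNNGC, the core of the antioxidant response element, on either strand, against 12.4% of all promoters. With so few promoters, finding none is near that background.

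Expression levels were first compared per length, as normalized counts per kilobase of the main annotated transcript. The 2 ferritin genes stood far above the rest. *Ftl1*, the light chain that helps iron crystallize inside the shell, had 273900 ± 9510 in WT and 279100 ± 6760 in Lcn10-KO (mean ± SD, n = 3), and *Fth1*, the heavy chain that oxidizes incoming iron, had 136100 ± 3050 and 140900 ± 3850. By normalized counts they ranked 2 and 3 among the 12091 genes tested. *Hmox1*, the inducible heme oxygenase, followed with 9780 ± 1200 per kilobase in WT and 8360 ± 571 in Lcn10-KO.

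The middle of the order was close. *Slc48a1*, a heme transporter of the lysosome, had 2729 ± 116 per kilobase in WT, *Blvrb*, a biliverdin reductase, 2393 ± 39.3, and *Slc11a1*, the metal transporter of the phagosome, 2293 ± 77.9. *Blvrb* and *Slc11a1* overlapped in WT, and *Slc48a1* and *Blvrb* overlapped in Lcn10-KO. Below them came *Slc40a1*, ferroportin, with 1002 ± 5.16 in WT and *Tfrc*, the transferrin receptor, with 711.2 ± 126. *Slc11a2*, a metal transporter of endosomes, had 256.5 ± 16.1, and *Lcn2* was last with 19.07 ± 3.16. The order of the means was the same in Lcn10-KO. With the shortest complete transcript of each gene as its length, the first 3 and the last 2 places stayed and the 5 genes between them changed order. The levels depended on the length used: the WT mean was then 527200 for *Ftl1* and 343600 for *Fth1*.

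**Figure D1:**
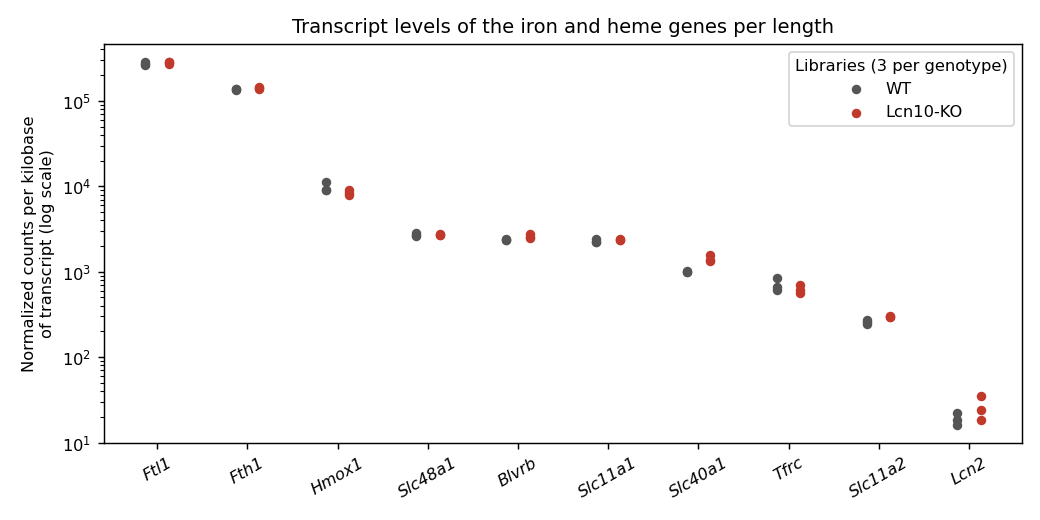
Normalized counts per kilobase of transcript (log axis) of the 10 genes, with 1 point per library, grey for the 3 WT and red for the 3 Lcn10-KO libraries. The ferritin genes lie above the other 8 in every library, and *Lcn2* lies between 16.21 and 34.92.

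Lcn10-KO was then set against WT for each gene. *Slc40a1*, the iron exporter, and *Slc11a2*, the endosomal metal transporter, were higher in Lcn10-KO. Ferroportin was 1.43 times its WT level and *Slc11a2* was 1.16 times. The ferritin genes, *Tfrc*, *Lcn2*, *Slc48a1*, *Slc11a1*, *Hmox1* and *Blvrb* did not pass the test. So 2 of the 10 genes were called, both higher, by limma on log2(value + 1) with a Benjamini-Hochberg adjusted p under 0.05 over all genes tested. Of all 12091 genes 9.84% were called, 4.70% toward higher and 5.14% toward lower values, which for 10 genes corresponds to about 1 call, so the count stays near the background. Their median log2 fold change (Lcn10-KO minus WT) was 0.053, against −0.001 over all genes tested.

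*Slc40a1* (chr1:45908068-45926523, minus strand of GRCm38), which moves ferrous iron out of the cell, had 3363, 3373 and 3397 normalized counts in WT replicates 1 to 3 and 4555, 4676 and 5221 in Lcn10-KO replicates 1 to 3. The 3 WT libraries were almost equal, with a coefficient of variation of 0.515%, and every Lcn10-KO library lay well above them. The log2 fold change was 0.51 ± 0.05 (SE, limma adjusted p = 0.000188, 95% interval 0.40 to 0.62). The call was kept when any 1 library was left out, with log2 fold changes of 0.45 to 0.55 and adjusted p up to 0.00207. It was lost in limma without the mean-variance trend (adjusted p = 0.0670).

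RNA of a whole culture was measured, so a change in the share of a cell type and a change of RNA per cell cannot be told apart. The 11 macrophage markers on the list were detected in all libraries. Their summed level was 335770 to 346380 in WT and 353810 to 369340 in Lcn10-KO. *Lyz2* alone had 165280 to 180316 in WT and 181584 to 193715 in Lcn10-KO, so the sum says little about the others. Of the 11, 3 were called higher (*Adgre1*, *Mertk*, *C1qb*) and 2 lower (*Csf1r*, *Cd14*), against 4.70% and 5.14% of all genes tested. The sum of 8 endothelial markers was 1382 to 1580 in WT and 1480 to 2047 in Lcn10-KO, with Lcn10-KO replicate 2 the highest. *Vwf* made up most of it and was the 1 of 6 tested that was called, toward higher values, against 4.70% of all genes. *Emcn* had 30.7, 31.8 and 27.2 in WT and 24.5, 121 and 62.4 in Lcn10-KO (limma adjusted p = 0.349). *Pecam1*, *Cdh5*, *Tie1*, *Tek* and *Cldn5* were likewise highest in Lcn10-KO replicates 2 and 3, whereas *Kdr* was not. The 10 erythroid markers, which bear on iron genes because red cell precursors use much iron, summed to 7.92 to 13.2 in WT and 18.1 to 22.8 in Lcn10-KO. Of these 10, 4 were at 0 in every library, among them *Hbb-bs*, *Hba-a2* and *Alas2*. *Epor*, the erythropoietin receptor, was the one that passed the filter, with 4.52, 6.88 and 3.28 in WT and 12.8, 11.8 and 14.6 in Lcn10-KO. It reached the 10 of the filter in the Lcn10-KO libraries alone, so it was tested only because it was high there. Its limma adjusted p of 0.0604 is therefore no support for a difference. Without *Epor* the sum of the other 9 was 3.401 to 9.869 in WT and 5.205 to 10.99 in Lcn10-KO, and the groups overlapped. The part of the macrophage, endothelial and erythroid markers in these results was not tested.

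*Slc11a2* (chr15:100387898-100425072, minus strand) had 1126, 1207 and 1065 normalized counts in WT and 1287, 1316 and 1337 in Lcn10-KO. Here the 2 groups did not overlap, but the gap between them was smaller than the range within WT. The log2 fold change was 0.22 ± 0.05 (SE, limma adjusted p = 0.0291, 95% interval 0.097 to 0.33). This call was lost when WT replicate 3 (adjusted p = 0.0881) or Lcn10-KO replicate 1, 2 or 3 (0.0693, 0.121 and 0.117) was left out, and in limma without the trend (0.135). *Gm5475*, which overlaps it on the opposite strand, did not exceed 1.13 in any library.

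*Slc11a1* (chr1:74375195-74386062, plus strand), its paralog in the phagosome membrane, known for its part in resistance to intracellular microbes, had 5223, 5516 and 5186 normalized counts in WT. It had 5602, 5475 and 5479 in Lcn10-KO. WT replicate 2 lay within the Lcn10-KO values. The log2 fold change of 0.06 ± 0.04 (SE) did not pass (limma adjusted p = 0.422), and its 95% interval was −0.032 to 0.15.

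Among the receptors and carriers, *Tfrc* (chr16:32608920-32632794, plus strand) had 4175, 2998 and 3260 normalized counts in WT and 3002, 2765 and 3374 in Lcn10-KO. WT replicate 1 stood above the other 5 libraries, which overlapped. The log2 fold change was −0.18 ± 0.15 (SE, limma adjusted p = 0.510), with a 95% interval of −0.55 to 0.19, and without WT replicate 1 it was −0.042. *Lcn2* (chr2:32384633-32388252, minus strand) had 16.97, 20.6 and 14.8 in WT and 31.9, 16.9 and 21.9 in Lcn10-KO. These are few reads per library, the groups overlapped, and the highest value belonged to Lcn10-KO replicate 1. The 95% interval of its log2 fold change ran from −0.27 to 1.03. Without that library the log2 fold change was 0.15. The 9 other genes named Lcn with a number, *Lcn10* included, were at 0 in every library. Markers of neutrophils, cells rich in *Lcn2*, overlapped too: the 12 on the list summed to 708.8 to 781.9 in WT and 727.1 to 783.8 in Lcn10-KO, and *Ly6g* was at 0 in every library.

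**Figure D2:**
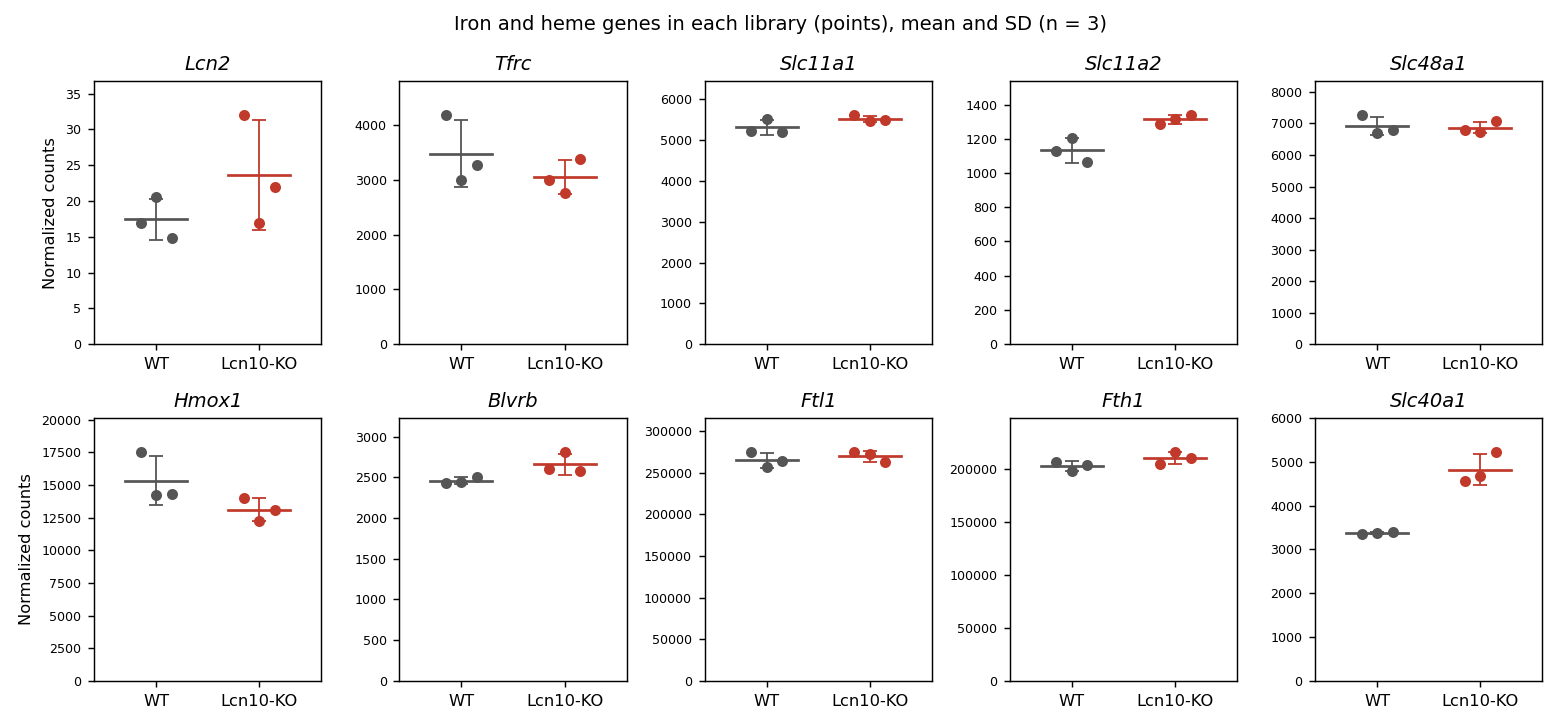
Normalized counts of the 10 genes in each library (points), with the mean (line) and SD (bar) of 3 libraries per genotype. Each axis starts at 0 and has its own scale. *Slc40a1* lies at 3363 to 3397 in WT and 4555 to 5221 in Lcn10-KO, and the ferritin genes overlap between genotypes.

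For heme, *Slc48a1* (chr15:97778520-97792692, plus strand of GRCm38), which passes heme from the lysosome to the cytosol, had 7257, 6710 and 6794 normalized counts in WT and 6808, 6729 and 7071 in Lcn10-KO. WT and Lcn10-KO overlapped fully, and the 95% interval of the log2 fold change was −0.10 to 0.084 (limma adjusted p = 0.915). *Hdac7* overlaps this gene on the opposite strand and had 219.6 to 266.3 in the 6 libraries.

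*Hmox1* (chr8:75093621-75100589, plus strand of GRCm38), which opens the heme ring and frees its iron, had 17524, 14219 and 14289 in WT and 14029, 12236 and 13085 in Lcn10-KO. All Lcn10-KO values lay below the WT values, the closest pair being WT replicate 2 and Lcn10-KO replicate 1. The log2 fold change was −0.22 ± 0.09 (SE) with an unadjusted p of 0.0402 and a limma adjusted p of 0.167, so it did not pass. Without WT replicate 1 it was −0.12.

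*Blvrb* (chr7:27447978-27466144, plus strand of GRCm38), a biliverdin reductase, had 2434, 2439 and 2506 normalized counts in WT and 2596, 2809 and 2572 in Lcn10-KO. All Lcn10-KO values were above WT, by little in 2 of the 3 libraries. The log2 fold change was 0.11 ± 0.05 (SE, limma adjusted p = 0.147). With *Slc40a1* and *Slc11a2*, *Hmox1* and *Blvrb* made 4 of 10 genes whose groups did not overlap, against 32.4% of all genes tested. Of the 4, 3 were higher and 1 lower in Lcn10-KO, against 15.5% and 16.9% of all genes. The same 4 had an unadjusted p under 0.05, against 26.3% of all genes.

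The storage genes did not separate by genotype. *Ftl1* (chr7:45457944-45459884, minus strand) had 274968, 256702 and 263874 normalized counts in WT and 274676, 273107 and 262637 in Lcn10-KO. *Fth1* (chr19:9980598-9985098, plus strand) had 207307, 198388 and 204529 in WT and 204822, 216326 and 210392 in Lcn10-KO. For both the groups overlapped. The 95% intervals of the log2 fold changes were −0.061 to 0.11 for *Ftl1* and −0.035 to 0.13 for *Fth1* (limma adjusted p = 0.727 and 0.464). Ferritin genes have processed copies across the genome. The 7 rows named as relatives of *Fth1* were at 0 throughout and no row was named as a copy of *Ftl1*, so reads of unlisted copies could be counted here, and both values are uncertain to that extent.

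**Figure D3:**
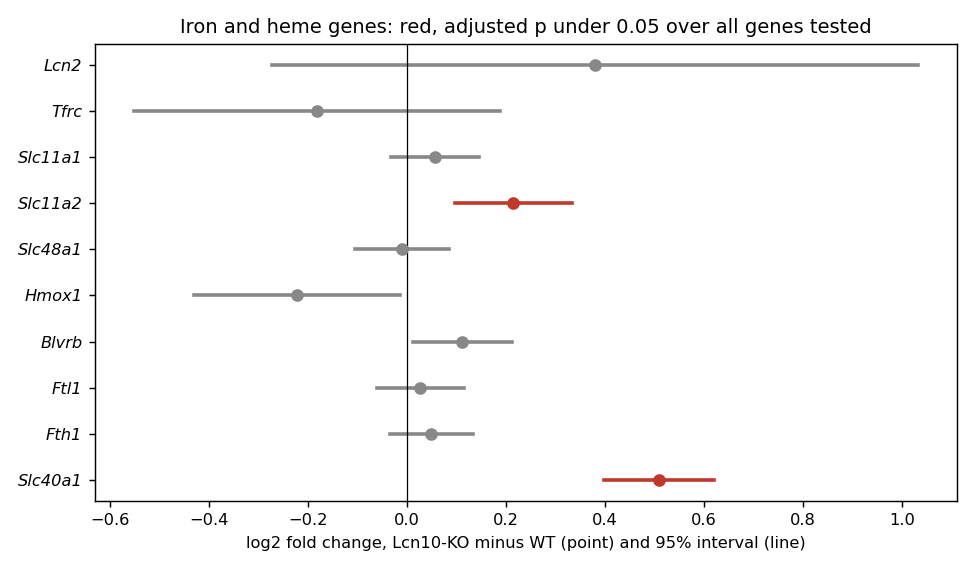
Log2 fold changes of the 10 genes, Lcn10-KO minus WT (points), with 95% intervals from limma (lines). Red marks the 2 genes past an adjusted p of 0.05, *Slc11a2* at 0.22 and *Slc40a1* at 0.51. The interval of *Lcn2* is the widest of the 10.

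Ratios between genes of 1 library do not depend on a scaling factor common to that library. They are ratios of normalized counts, not per length. Of 5 ratios, 3 did not overlap between genotypes. Each of these 3 held at least 1 gene that did not overlap by itself, so the count is no separate support. *Hmox1* was lower and *Blvrb* higher in all Lcn10-KO libraries than in any WT library, so their ratio could not overlap. The share among ratios of other gene pairs was not computed. *Slc40a1* over *Tfrc*, export against uptake, was 0.806, 1.13 and 1.04 in WT and 1.52, 1.69 and 1.55 in Lcn10-KO. Every Lcn10-KO library lay above every WT library, and WT replicate 1 was the lowest. The log2 ratio differed by 0.69. *Hmox1* over *Blvrb*, heme oxygenase against a biliverdin reductase, was 7.20, 5.83 and 5.70 in WT and 5.40, 4.36 and 5.09 in Lcn10-KO. Its log2 difference was −0.33. *Slc11a1* over *Slc11a2*, phagosome against endosome transporter, was 4.57 to 4.87 in WT and 4.10 to 4.35 in Lcn10-KO, a log2 difference of −0.16. Each of these 3 had p = 0.10 in a two-sided exact permutation test, the smallest that 3 against 3 libraries allow, and 0.167 adjusted over the 5 ratios.

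The other 2 ratios overlapped. *Fth1* over *Ftl1*, the balance of the ferritin chains, was 0.754, 0.773 and 0.775 in WT and 0.746, 0.792 and 0.801 in Lcn10-KO (exact permutation p = 0.60). *Tfrc* over *Fth1*, uptake against storage, was 0.0201, 0.0151 and 0.0160 in WT and 0.0147, 0.0128 and 0.0160 in Lcn10-KO (exact permutation p = 0.30).

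**Figure D4:**
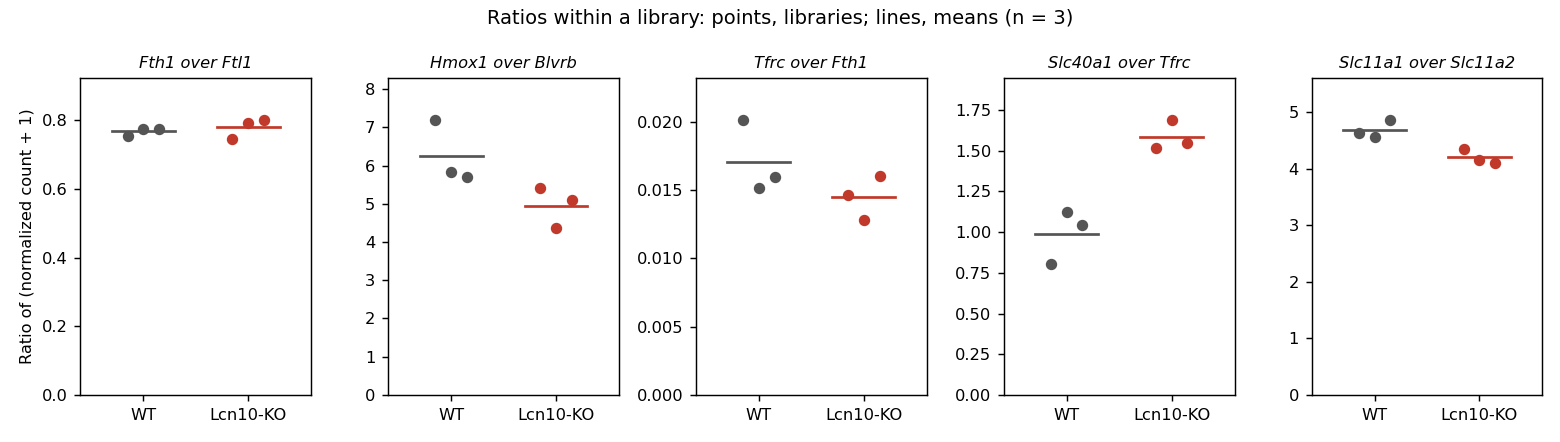
Ratios between genes within a library (points), with the mean of 3 libraries per genotype (lines). The axes start at 0. *Slc40a1* over *Tfrc* lies at 0.806 to 1.13 in WT and 1.52 to 1.69 in Lcn10-KO.

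A wider list of 76 other genes of iron and heme handling, set by role, gives the surroundings of the 10. Of its genes 61 passed the filter, of which 6 were called higher, 5 lower and 50 not past the threshold, 11 of 61 against 9.84% of all genes. The median log2 fold change was 0.027. Of the 11, *Slc39a14* alone was called in all 6 fits that each left out 1 library. The list held 4 calls when WT replicate 3 was dropped and 4 when Lcn10-KO replicate 1 was dropped, but 1 when either Lcn10-KO replicate 2 or 3 was. Among the genes next in p within a role, *Pgrmc1* (limma adjusted p = 0.0881), *Mafg* (0.0995), *Hfe* (0.229) and *Bola3* (0.250) missed the threshold, as did *Por*, *Pcbp2*, *Urod*, *Pcbp1*, *Alad* and *Heph* at 0.294 to 0.537.

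Of 12 genes of iron uptake and reduction, 3 were lower and 0 higher, against 5.14% and 4.70% of all genes tested. *Slc39a14*, a zinc and iron importer of the cell surface, had 1052, 864.5 and 915.9 normalized counts in WT and 679.7, 606.5 and 628.1 in Lcn10-KO. WT and Lcn10-KO lay far apart, and it fell by 0.56 ± 0.07 on the log2 scale (SE, limma adjusted p = 0.00135). *Lrp1*, a large endocytic receptor that takes up heme bound to hemopexin among many ligands, fell by 0.25 ± 0.06 (adjusted p = 0.0244), from 60379 to 72284 in WT to 54477 to 57107 in Lcn10-KO. *Bdh2*, a dehydrogenase proposed to make a mammalian siderophore, had 52.4 to 82.7 in WT and 25.0 to 43.7 in Lcn10-KO (log2 fold change −1.05 ± 0.24, adjusted p = 0.0202). *Lrp1* lost its call without Lcn10-KO replicate 1, 2 or 3 (adjusted p = 0.0601, 0.117 and 0.0967), and *Bdh2* without WT replicate 3 or Lcn10-KO replicate 2 or 3 (0.0586, 0.0898 and 0.0975). *Trf*, transferrin, had 3366, 4367 and 4345 in WT and 5060, 5112 and 4948 in Lcn10-KO and did not pass (adjusted p = 0.0827). *Slc22a17*, a receptor of *Lcn2*, was below the filter.

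In export and ferritin turnover, *Cp*, the ferroxidase ceruloplasmin that loads exported iron onto transferrin, had 40.8, 37.9 and 38.8 normalized counts in WT and 72.6, 54.7 and 60.1 in Lcn10-KO (log2 fold change 0.65 ± 0.18, limma adjusted p = 0.0433). It overlaps *Hps3* on the opposite strand, which had 1064 to 1155. Its call was lost without any 1 library other than WT replicate 1, with adjusted p of up to 0.162. *Ncoa4*, the receptor that carries ferritin to the autophagosome, rose from 4365, 5666 and 5481 to 7160, 7593 and 8090 (0.57 ± 0.10, adjusted p = 0.0244). WT replicate 1 was its lowest library, and without it the log2 fold change was 0.45. The call of *Ncoa4* was lost without Lcn10-KO replicate 2 or 3 (adjusted p = 0.0946 and 0.0852). So the cargo receptor of ferritin was higher in each Lcn10-KO library, while the ferritin messages overlapped. *Hamp*, the gene of hepcidin, which leads to the degradation of ferroportin, and its paralog *Hamp2* were below the filter.

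Heme transport held 1 higher and 1 lower gene of 6, against 4.70% and 5.14% of all genes tested. *Flvcr1*, a heme exporter, was 2254 to 2328 in WT and 2483 to 2582 in Lcn10-KO (log2 fold change 0.15 ± 0.04, limma adjusted p = 0.0402). *Abcb6*, a porphyrin transporter, fell by 0.27 ± 0.07 on the log2 scale (adjusted p = 0.0340), from 579.8 to 673.6 in WT to 484.3 to 531.1 in Lcn10-KO. *Flvcr1* and *Ppox* lost their calls without WT replicate 3 or any 1 Lcn10-KO library, and *Abcb6* without any 1 library other than WT replicate 2. Of 8 tested genes of heme synthesis 1 was called, against 9.84% of all genes tested. This was *Ppox*, protoporphyrinogen oxidase, with 277.0 to 283.0 in WT and 319.6 to 358.8 in Lcn10-KO. It overlaps *B4galt3* on the opposite strand, which had 311.2 to 349.7, and without known strand use reads in the shared part cannot be assigned. None of the 3 other genes of heme breakdown passed limma (1 at an unadjusted p under 0.05), *Blvra*, the other biliverdin reductase, having an adjusted p of 0.0720. Over all genes tested 9.84% passed and 26.3% had an unadjusted p under 0.05, so these counts stay near the background.

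No sensor of iron passed. *Aco1* and *Ireb2*, the iron regulatory proteins that bind the hairpins, and *Fbxl5*, which degrades the latter, had log2 fold changes of 0.05 ± 0.05, 0.05 ± 0.05 and 0.04 ± 0.06, with 0 of 3 called by limma and 0 at an unadjusted p under 0.05. None of the 11 genes of mitochondrial iron and iron-sulfur clusters was called (1 at an unadjusted p under 0.05, *Sfxn1*). Over all genes tested 9.84% were called and 26.3% had an unadjusted limma p under 0.05. For so few sensors and mitochondrial genes, no call is near that background. Of 12 genes of transcriptional control, 2 were higher and 1 lower, against the same shares of 4.70% and 5.14%. *Bach1*, the heme-sensing repressor of *Hmox1* and ferritin, had 2229, 2447 and 2319 normalized counts in WT and 2524, 2592 and 2768 in Lcn10-KO (0.17 ± 0.05, adjusted p = 0.0488). *Nr1h3*, liver X receptor alpha, rose by 0.40 ± 0.08 and *Hif1a*, the hypoxia factor, fell by 0.16 ± 0.04 on the log2 scale (adjusted p = 0.0092 and 0.0327). *Bach1* lost its call without any 1 library other than WT replicate 2, *Nr1h3* without Lcn10-KO replicate 2 or 3, and *Hif1a* without WT replicate 3 or any 1 Lcn10-KO library. *Nfe2l2*, encoding NRF2, the activator opposed to *Bach1*, had 5050 to 5882 in WT and 6072 to 6237 in Lcn10-KO and did not pass (adjusted p = 0.0930). *Spic*, a factor of iron-recycling red pulp macrophages, had 4.56, 21.6 and 11.54 in WT and 21.3, 37.2 and 20.8 in Lcn10-KO (adjusted p = 0.142).

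**Figure D5:**
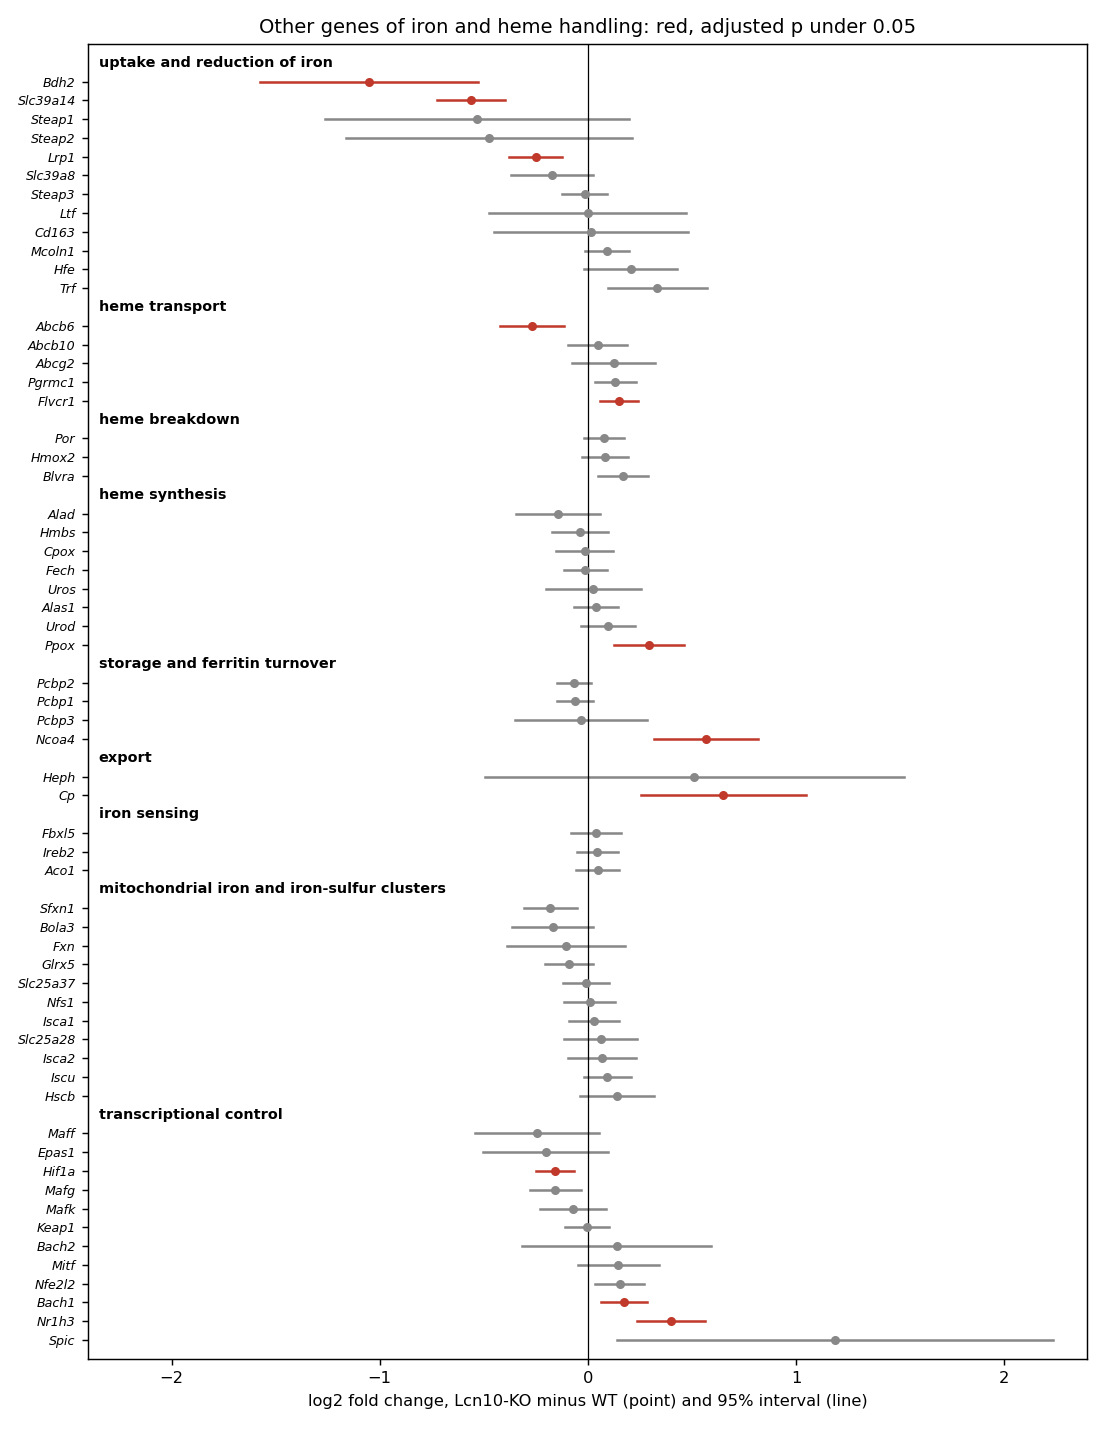
Log2 fold changes of 60 of the 61 tested genes of the wider list by role, Lcn10-KO minus WT (points), with 95% intervals from limma (lines). Red marks the 11 genes past an adjusted p of 0.05. The 3 called genes of the role uptake and reduction of iron lie below 0. *Trf* of that role, which was not called, lies above 0, as do *Cp* and *Ncoa4*.

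The genes whose profile over the 6 libraries was most like each called member were found by the root mean square difference of centred log2 values among 10558 genes with a mean of at least 50. For *Slc40a1* they were *Eno2*, a glycolytic enolase, *Fabp5*, a fatty acid-binding protein, and *Timp2*, an inhibitor of matrix metalloproteinases, at 0.055, 0.057 and 0.057 log2 units. For *Slc11a2* they were *Soat1*, which esterifies cholesterol, *Tmem35b* and *Gna12*, a G protein subunit, at 0.020, 0.021 and 0.023. A profile over 6 libraries is short, and this is a description.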

How the data were processed

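The authors sequenced RNA of 6 libraries and deposited a table of 24972 gene symbols. The deposited values are a signal of scaled read counts, called normalized counts here, that are not whole. Per the submitters' processing notes, bcl2fastq, STAR 2.6.1a, Salmon 0.11.2, DESeq2 and the build mm10 were used, with no role or order given. The annotation and the use of strand were not given in the sources used here. Totals were 20476668 to 20636260 per library. The value of 1 read was 0.824 to 1.14, which gives about 18000000 to 24800000 reads. From 86.3% to 90.3% of values under 20 were whole multiples of it within 0.1, so reads were not recovered and no count test was run.

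Columns were matched to samples by library name. The filter kept 12091 genes that reached 10 in 3 or more libraries. Genotype was fitted to log2(value + 1) by limma 3.58.1 (R 4.3.3) with a variance trend and robust estimation, with Benjamini-Hochberg adjustment at 0.05. The fit was run on simulated counts with known changes, in which all genes shared a common setting for spread. That run cannot show how the variance trend handles genes of unlike spread. Members and lists were chosen with earlier results of these data known. Named are all members, all called genes of the wider list and up to 2 others per role by p, and 3 like profiles per called member. Where a gene of these lists is not named, it is not reported here. Others, such as *Fbxl5*, *Spic* and marker genes, were chosen after their values were seen. *Hjv* was found under its older symbol *Hfe2*. Positions and lengths came from GENCODE M21 and the longest principal transcript. Figures were drawn with matplotlib 3.10.9.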

Additional observations from a re-analysis of the deposited data

How the results depend on the processing

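Alternatives were quantile normalization, median ratio rescaling, other filters, pseudocounts of 0.5 and 10, limma without the trend, a replicate block and each library left out. The median ratio factor was 1.002 in every library, so that rescaling could change almost nothing. Without the trend 14 genes were called in all, and 0 of the 10 members and 0 of the wider list (2 and 18 at an unadjusted p under 0.05). With 1 library left out, the calls ranged from 175 to 1664 genes, from 1 to 2 members and from 1 to 12 genes of the wider list. The totals were 566, 207 and 175 without Lcn10-KO replicates 1, 2 and 3. The direction changed for *Ftl1* under quantile normalization (−0.063, not called), which sets the highest-ranked genes to common values, and for *Slc48a1* when libraries were left out (−0.032 to 0.025, never called). The replicate numbers do not pair the libraries by the labels. Deviations of same-numbered libraries correlated at 0.038, 0.073 and 0.014, and not every library correlated best with its own number. With the replicate block 1607 genes were called, with 3 members and 14 genes of the wider list. The member added by the block was *Hmox1* (adjusted p = 0.0102). The ratios of members were run only with the pseudocount of 0.5, with each library left out and with the relatives of *Fth1* added. They kept their direction. Where the groups did not overlap, leaving out a library could not reverse it. The log2 difference of *Fth1* over *Ftl1* fell to 0.0025 without Lcn10-KO replicate 3. *Cp* also lost its call under quantile normalization and with no filter (adjusted p = 0.0542 and 0.0547), as did *Flvcr1* and *Bach1* with no filter (0.0584 and 0.0568). Adding the rows named as relatives of *Fth1* to it changed nothing, as they were at 0, and the sum for *Ftl1* was not run. Reads of unlisted processed copies were not tested by this. Low values limit the precision for *Lcn2*, *Bdh2*, *Cp*, *Heph* and *Spic*.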
